A study of Mus musculus with 24 samples.

Results

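The mRNA levels of 10 plasma membrane amino acid transporters were followed through endoplasmic reticulum (ER) stress in a mouse beta cell line. The genes were chosen by symbol from the table of raw counts: Slc7a11, Slc7a5, Slc7a6, Slc3a2, Slc7a1, Slc7a3, Slc1a4, Slc1a5, Slc38a2 and Slc6a9. They are 10 of the 24421 genes in the table, and all 10 passed the filter on low counts. Polyadenylated RNA was sequenced from MIN6, an insulin-secreting cell line derived from a mouse insulinoma. The cells carried a control plasmid that expresses GFP, or a plasmid that expresses EIF2A-GFP, a fusion with the translation initiation factor EIF2A. They then received 1 µM thapsigargin, a blocker of the calcium pump of the ER, for 1 or 3 h, or the vehicle DMSO, called 0 h here. The 6 groups are GFP at 0, 1 and 3 h and EIF2A at 0, 1 and 3 h, with 4 libraries each and 24 in all. Every group carries a transfected plasmid. The labels do not give the promoter of the plasmids or the share of cells that took them up.

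Amino acid transporters move their substrates across the cell membrane and differ in what they carry and what they exchange it for. Slc3a2 encodes the heavy chain 4F2hc (CD98), which brings several light chains to the plasma membrane as heterodimers. Among these light chains, Slc7a5 (LAT1) exchanges large neutral amino acids such as leucine, Slc7a11 (xCT) imports cystine in exchange for glutamate, and Slc7a6 exchanges cationic for neutral amino acids. Slc7a1 and Slc7a3 (CAT1 and CAT3) carry arginine and lysine and need no heavy chain. Slc1a4 and Slc1a5 (ASCT1 and ASCT2) exchange small neutral amino acids such as serine, and Slc1a5 also exchanges glutamine. Slc38a2 (SNAT2) takes up neutral amino acids with sodium, and Slc6a9 (GLYT1) takes up glycine. In the integrated stress response, phosphorylation of the factor eIF2α lowers translation in general and raises that of ATF4, a transcription factor whose known targets include genes for amino acid transport and synthesis.

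Depth ran from 10.5 to 22.2 M (mega) counts per library. The level of Eif2a served to check the labels. In replicates 2 to 4 it lay at 77.8 to 102 counts-per-million (CPM) in the GFP groups and at 134 to 209 CPM in the EIF2A groups. In replicate 1 it lay at 269 to 361 CPM in the libraries labelled GFP and at 80.3 to 104 CPM in the libraries labelled EIF2A, which goes against both labels. The libraries labelled replicate 1 also stood apart over all genes: chi-square over degrees of freedom between libraries of a group was 65.2 to 146 with them and 1.32 to 19.0 without them. The labels were kept as given, and calls on the 10 genes that change without replicate 1 are given both ways. Calls with time on other gene lists and markers use all libraries. All 9 beta cell markers were present in every group, at a sum of 37145 to 114968 CPM over the libraries, and 5 acinar markers together stayed between 0.152 and 1.15 CPM, with 2 or 3 of them at 0 in each group. The labels do not say whether replicates are separate cultures, so p-values measure only the spread between these libraries.

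Levels between genes were compared per kilobase (kb) of exonic length. In GFP cells without thapsigargin, Slc7a5 was the highest of the 10 genes at 99.8 ± 4.39 CPM per kb (SD, n = 4). Slc3a2 followed at 51.3 ± 3.01 CPM per kb and Slc38a2 at 28.3 ± 3.15 CPM per kb. Slc1a4 (9.99 ± 0.968), Slc7a6 (9.79 ± 1.35) and Slc7a1 (8.27 ± 1.29 CPM per kb) came next, and neighbours among these 3 overlapped between libraries. Below them lay Slc1a5 at 5.30 ± 0.195, Slc7a3 at 3.56 ± 0.586, Slc6a9 at 1.95 ± 0.288 and Slc7a11 at 0.440 ± 0.115 CPM per kb. Every other pair of neighbours in this order was apart in all libraries. After 3 h in GFP cells, the cystine transporter Slc7a11 was still the lowest at 3.03 ± 0.594 CPM per kb, and Slc7a5 the highest at 205 ± 34.9 CPM per kb. The place of Slc7a11 depends on the division by its exonic length of 13.9 kb, the longest of the 10. By mean CPM at 3 h it stood at 42.2, above Slc7a6 (40.6), Slc6a9 (31.7), Slc7a3 (29.8) and Slc1a5 (28.1). Slc3a2 stood at 157 ± 11.8 CPM per kb and Slc1a4, at 32.2 ± 5.81 CPM per kb, close to Slc38a2 at 34.7 ± 1.35 CPM per kb. In EIF2A cells at 3 h, Slc7a5 was at 167 ± 27.4, Slc3a2 at 153 ± 13.2, Slc1a4 at 28.9 ± 1.24 and Slc38a2 at 22.4 ± 9.66 CPM per kb.

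**Figure D1:**
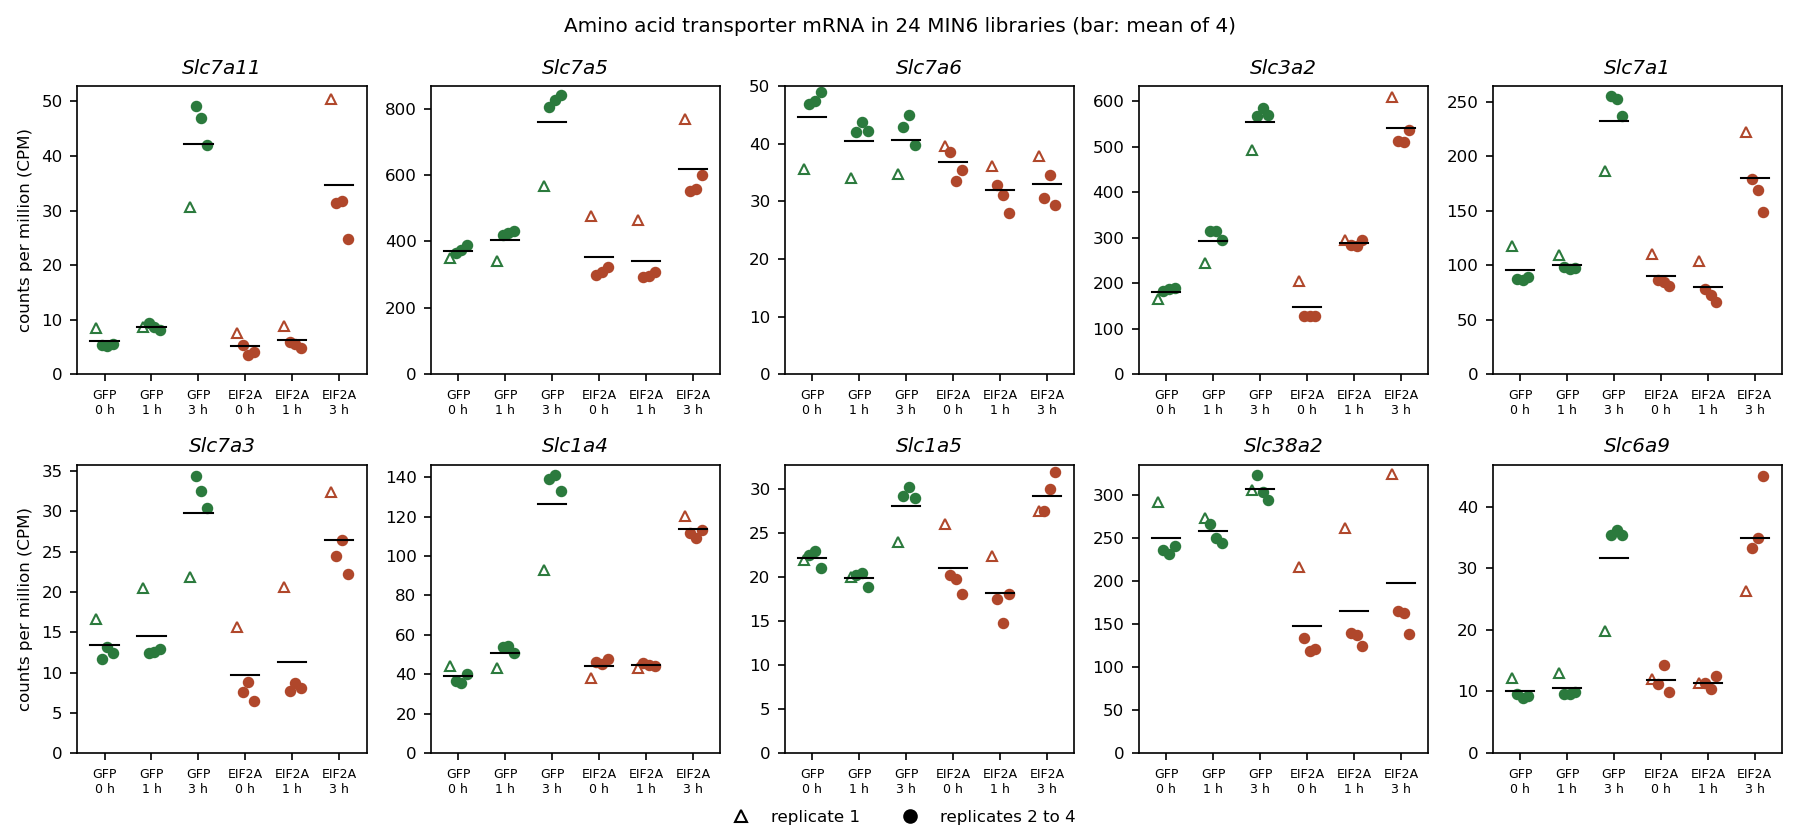
CPM of the 10 transporter genes in each library, by group; triangles mark replicate 1, circles replicates 2 to 4, and lines give the mean of 4 libraries. Slc7a11, Slc7a5, Slc3a2, Slc7a1, Slc7a3, Slc1a4, Slc1a5 and Slc6a9 lie higher in every 3 h library than in any 0 h library of the same construct. Slc38a2 does so in GFP cells only. The same held for 21.1% of all genes tested in GFP and 15.1% in EIF2A cells. Replicate 1 often lies apart from the other 3 replicates of its group.

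The promoters of Slc7a11 and Slc1a4 are shown because they were the only 2 of the 7 members with a RefSeq promoter window (build GRCm38.p6) that held TGATGNAA, the core of the C/EBP-ATF response element bound by ATF4 with its partners. Slc7a5, Slc7a3 and Slc1a5 had no entry. Windows run from 250 bases before to 50 bases after each annotated start, and both strands were searched. Capitals mark the matches; the Slc7a11 stretch is chr3:50443634-50443713 on the minus strand, from base -100 to -21 relative to the start, and the Slc1a4 stretch is chr11:20332710-20332789 on the minus strand, from base -76 to 4.
Slc7a11: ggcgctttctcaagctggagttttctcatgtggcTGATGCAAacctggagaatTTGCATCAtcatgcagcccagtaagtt
Slc1a4: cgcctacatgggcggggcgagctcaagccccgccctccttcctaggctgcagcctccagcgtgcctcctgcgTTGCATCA
Slc7a11 held 2 matches that face each other, at bases -66 to -59 on the strand of the gene and at -47 to -40 on the other strand. Slc1a4 held 1 match, at -4 to 4 on the other strand. Of 32851 promoter windows of this length, 3.97% held at least 1 match and 23 (0.0700%) held 2 or more. The antioxidant response element core TGACNNNGC, bound by NRF2, was present in 12.4% of all windows; it was found in windows of Slc6a9, Slc7a1, Slc7a6 and Slc38a2. A match describes the letters of the window only.

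After 3 h of thapsigargin, 8 of the 10 transporter genes rose in GFP cells, and 8 of 10 rose in EIF2A cells: Slc7a11, Slc3a2, Slc1a4, Slc6a9, Slc7a1, Slc7a3, Slc7a5 and Slc1a5. None fell. By the quasi-likelihood test of edgeR with Benjamini-Hochberg adjustment, at an adjusted p under 0.05, 18.4% of the 13761 genes tested rose and 14.6% fell in GFP cells at 3 h. In EIF2A cells 19.6% rose and 16.6% fell. For 21.1% of all genes tested in GFP and 15.1% in EIF2A cells, every 3 h library lay above every 0 h library. The median log2 fold change of the 10 genes was 1.22 in GFP and 1.18 in EIF2A cells, where that of all genes was -0.0024 and -0.010. Since the 10 genes were chosen with earlier results of these data known, their counts and medians are descriptions.

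The light chains were led in size of change by Slc7a11, the cystine importer. Slc7a11 lies on chromosome 3 at 49892526 to 50443614 on the minus strand (GRCm38). In GFP cells it was at 8.51, 5.35, 5.11 and 5.53 CPM in replicates 1 to 4 at 0 h. At 1 h it was at 8.67, 9.43, 8.67 and 8.18 CPM, and at 3 h at 30.7, 49.3, 46.9 and 42.0 CPM. All 3 h libraries lay above all others, and the libraries at 1 h overlapped those at 0 h only through replicate 1. Slc7a11 rose by a log2 fold change of 2.79 ± 0.26 (SE) at 3 h (edgeR adjusted p = 7.95e-08). At 1 h its value was 0.52 ± 0.25 (edgeR adjusted p = 0.252), and with the replicate number as a block within each construct it was 0.54 ± 0.16 (adjusted p = 0.011), which passed. EIF2A cells had 7.53, 5.38, 3.44 and 4.13 CPM at 0 h and 50.5, 31.4, 31.7 and 24.8 CPM at 3 h, again with no overlap. The log2 fold change there was 2.74 ± 0.26 (edgeR adjusted p = 1.02e-07).

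Slc7a5, the leucine exchanger on chromosome 8 at 121881150 to 121907694 (minus strand), was the most abundant light chain throughout. In GFP cells it stood at 351, 364, 375 and 390 CPM at 0 h and at 567, 805, 826 and 841 CPM at 3 h. EIF2A cells had 478, 298, 309 and 323 CPM at 0 h and 768, 552, 556 and 601 CPM at 3 h. Libraries at 3 h lay above those at 0 h in both constructs. The log2 fold change was 1.04 ± 0.17 in GFP (edgeR adjusted p = 7.07e-05) and 0.82 ± 0.17 in EIF2A cells (edgeR adjusted p = 0.000678). At 1 h Slc7a5 had log2 fold changes of 0.13 ± 0.17 in GFP and -0.05 ± 0.17 in EIF2A cells and did not pass. Without replicate 1, the value at 1 h in GFP cells was 0.18 ± 0.05 and passed (edgeR adjusted p = 0.00602).

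Slc7a6, the exchanger of cationic for neutral amino acids, did not share this course. It lay at 35.6, 46.8, 47.5 and 49.0 CPM in GFP cells at 0 h and at 34.7, 43.0, 45.0 and 39.8 CPM at 3 h, and the groups overlapped. Its log2 fold change was -0.14 ± 0.12 in GFP (edgeR adjusted p = 0.399) and -0.15 ± 0.12 in EIF2A cells (edgeR adjusted p = 0.339). With the replicate block it passed in both, at -0.14 (adjusted p = 0.0402) and -0.15 (adjusted p = 0.0339). In EIF2A cells at 1 h the blocked value also passed, at -0.20 (adjusted p = 0.011), where the value without the block was -0.20 ± 0.12 (edgeR adjusted p = 0.328).

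The heavy chain gene Slc3a2, on chromosome 19 at 8706882 to 8723369 (minus strand), was, without the block, the only member that rose at 1 h in EIF2A cells, and it rose at 1 h in GFP cells as well. It was at 166, 182, 188 and 188 CPM in GFP cells at 0 h, at 244, 314, 316 and 294 CPM at 1 h and at 492, 566, 586 and 570 CPM at 3 h. In EIF2A cells it was at 204, 128, 129 and 129 CPM at 0 h, at 294, 285, 281 and 295 CPM at 1 h and at 609, 511, 510 and 536 CPM at 3 h. No library of a time point overlapped with one of another time point in either construct. From 0 to 1 h, all libraries lay higher for 12.2% of all genes tested in GFP and 7.31% in EIF2A cells. From 1 to 3 h this held for 12.3% and 7.73%. At 1 h Slc3a2 rose by 0.69 ± 0.12 on the log2 scale in GFP (edgeR adjusted p = 0.00133) and by 0.97 ± 0.12 in EIF2A cells (edgeR adjusted p = 4.46e-05). At 3 h the log2 fold change was 1.61 ± 0.13 in GFP (edgeR adjusted p = 9.25e-09) and 1.88 ± 0.13 in EIF2A cells (edgeR adjusted p = 1.88e-09). Without the libraries of replicate 2 or of replicate 3, the GFP call at 1 h was lost (adjusted p = 0.0889 and 0.0792).

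Over all members, 2 of 10 rose at 1 h in GFP cells, Slc3a2 and Slc1a4, against 5.78% of all genes that rose and 2.39% that fell. In EIF2A cells 1 of 10 rose at 1 h, Slc3a2, against 6.55% that rose and 3.94% that fell. Between 1 and 3 h, 8 of 10 rose in each construct, against 5.49% of all genes that rose and 4.28% that fell in GFP cells and 8.28% that rose and 6.62% that fell in EIF2A cells. The 8 are those that rose from 0 to 3 h. Of them Slc7a3 in GFP cells had the weakest call from 1 to 3 h, at 1.03 ± 0.29 (edgeR adjusted p = 0.0281), and leaving out any of replicates 2 to 4 at either time ended it (adjusted p from 0.0596 to 0.0895). Leaving out all libraries of replicate 2, 3 or 4 also ended the 1 to 3 h call in some cases: for Slc7a3 and Slc1a5 in GFP cells without any of these numbers (adjusted p from 0.111 to 0.323), for Slc7a3 in EIF2A cells likewise (0.0775 to 0.157), for Slc7a5 in both constructs without replicate 2 or 3 (0.0517 to 0.0701) and for Slc1a5 in EIF2A cells without replicate 3 (0.0517).

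**Figure D2:**
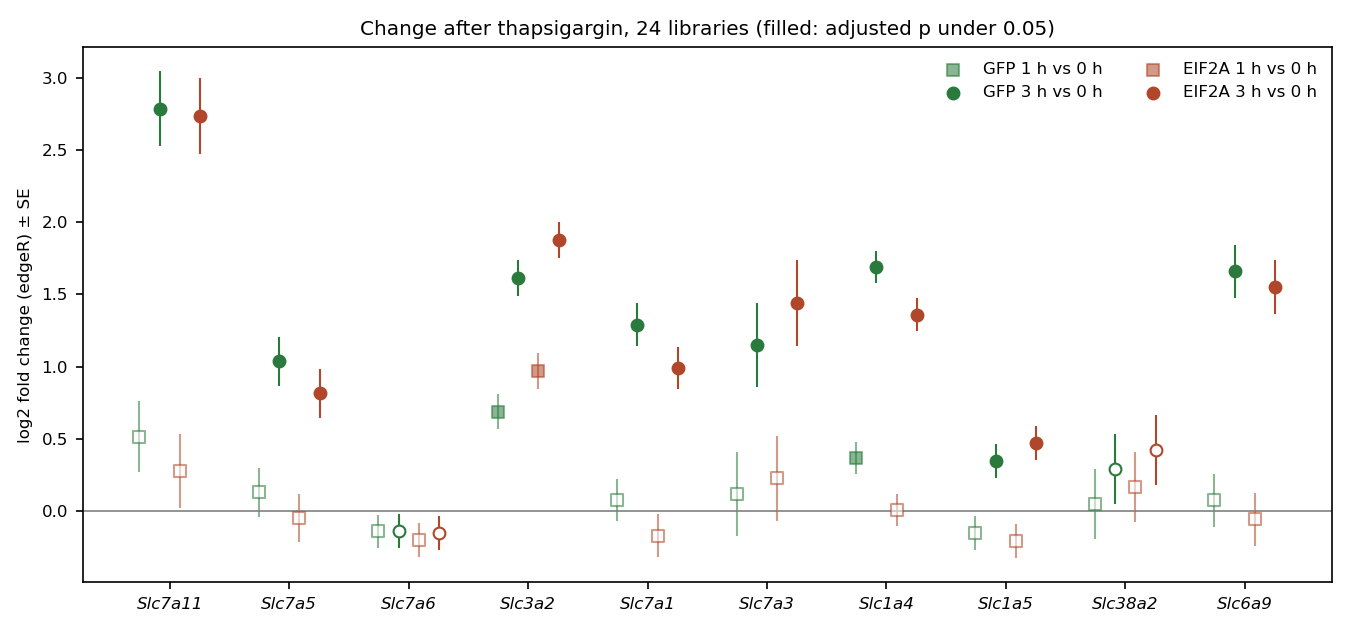
Log2 fold change of each transporter gene at 1 h and 3 h against 0 h in GFP and EIF2A cells. Standard errors were derived from the F statistic of the edgeR fit over 24 libraries. Filled symbols passed at an adjusted p under 0.05. At 3 h Slc7a11 has the largest change in both constructs (2.79 in GFP, 2.74 in EIF2A) and Slc7a6 lies just below 0, while at 1 h Slc3a2 lies highest.

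Light and heavy chain transcripts did not change in step between 0 and 3 h. The summed level per kb of the light chains Slc7a5, Slc7a6, Slc7a7, Slc7a8, Slc7a10 and Slc7a11 was divided by that of Slc3a2 in each library. In GFP cells the ratio was 2.28, 2.26, 2.27 and 2.32 at 0 h and 1.19, 1.47, 1.46 and 1.51 at 3 h. In EIF2A cells it was 2.53, 2.61, 2.65 and 2.76 at 0 h and 1.31, 1.12, 1.14 and 1.15 at 3 h. The ratio was lower in every 3 h library than in any 0 h library. Its mean went from 2.28 ± 0.0268 to 1.41 ± 0.147 in GFP and from 2.64 ± 0.0925 to 1.18 ± 0.0890 in EIF2A cells (SD, n = 4). At 1 h the mean was already 1.51 ± 0.0661 in GFP and 1.27 ± 0.286 in EIF2A cells. Each of the 6 comparisons of ratios and shares between 0 and 3 h gave p = 0.0286 in a two-sided exact permutation test, the smallest p that 4 libraries against 4 allow, and 0.0286 after adjustment over the 6.

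Among the light chains, Slc7a11 took 0.381% ± 0.127 of the summed level at 0 h and 1.36% ± 0.112 at 3 h in GFP cells. In EIF2A cells it took 0.332% ± 0.0699 at 0 h and 1.35% ± 0.241 at 3 h. Slc7a5 held 85.3% ± 2.23 of the light chain level at 0 h in GFP cells and 92.3% ± 0.364 at 3 h. The share of Slc7a6 was 8.33% ± 0.696 at 0 h and 4.05% ± 0.417 at 3 h, and that of Slc7a8 (LAT2), another exchanger of neutral amino acids, was 5.59% ± 1.79 and 2.04% ± 0.304. By level per kb, Slc7a11 remained a small share of the light chain transcripts at every time. Its size depends on the division by exonic length, 13.9 kb for Slc7a11, 4.57 kb for Slc7a6 and 3.71 kb for Slc7a5. By mean CPM in GFP cells at 3 h, Slc7a11 was at 42.2, Slc7a6 at 40.6 and Slc7a5 at 760.

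Of the cationic amino acid transporters, Slc7a1 rose in both constructs. It lies on chromosome 5 at 148327410 to 148399904 on the minus strand. It was at 118, 87.1, 86.9 and 89.7 CPM in GFP cells at 0 h, at 109, 98.0, 96.7 and 97.7 CPM at 1 h and at 186, 255, 253 and 237 CPM at 3 h. The EIF2A libraries gave 110, 86.4, 84.6 and 81.1 CPM at 0 h, 104, 78.2, 73.0 and 66.6 CPM at 1 h and 223, 179, 169 and 149 CPM at 3 h. Groups at 0 and 3 h did not overlap. At 3 h the log2 change was 1.29 ± 0.15 in GFP (edgeR adjusted p = 1.26e-06) and 0.99 ± 0.15 in EIF2A cells (edgeR adjusted p = 2.15e-05). At 1 h in EIF2A cells it was -0.17 ± 0.15 (edgeR adjusted p = 0.564), and without replicate 1 it was -0.21 ± 0.07 and passed (edgeR adjusted p = 0.0158).

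Slc7a3, its relative on the X chromosome at 101079210 to 101086020 (minus strand), was at 16.7, 11.6, 13.1 and 12.4 CPM in GFP cells at 0 h and at 21.8, 34.4, 32.6 and 30.5 CPM at 3 h. In EIF2A cells it was at 15.6, 7.53, 8.88 and 6.50 CPM at 0 h and at 32.4, 24.5, 26.5 and 22.2 CPM at 3 h. Replicate 1 was the highest library at 0 h in both constructs, and the lowest at 3 h in GFP cells. On the log2 scale the change was 1.15 ± 0.29 in GFP (edgeR adjusted p = 0.00415) and 1.44 ± 0.30 in EIF2A cells (edgeR adjusted p = 0.000647). The GFP call was lost without the libraries of replicate 2 or replicate 3 (adjusted p = 0.0675 and 0.0677).

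Slc7a2 (CAT2), the third cationic transporter, fell at 3 h by 0.75 on the log2 scale in GFP and by 0.63 in EIF2A cells. The share of Slc7a2 in the summed level per kb of the 3 genes was 63.8% ± 1.25 at 0 h and 30.7% ± 7.70 at 3 h in GFP cells, and 65.2% ± 3.57 and 35.6% ± 0.501 in EIF2A cells. Slc7a1 had 25.4% ± 0.930 at 0 h and 49.9% ± 4.90 at 3 h in GFP cells. The share of Slc7a3 went from 10.9% ± 0.562 to 19.4% ± 2.83 in GFP and from 8.40% ± 2.59 to 19.9% ± 0.694 in EIF2A cells, with no overlap between the libraries of 0 and 3 h. Its exact permutation p is the one given above for the 6 comparisons.

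**Figure D3:**
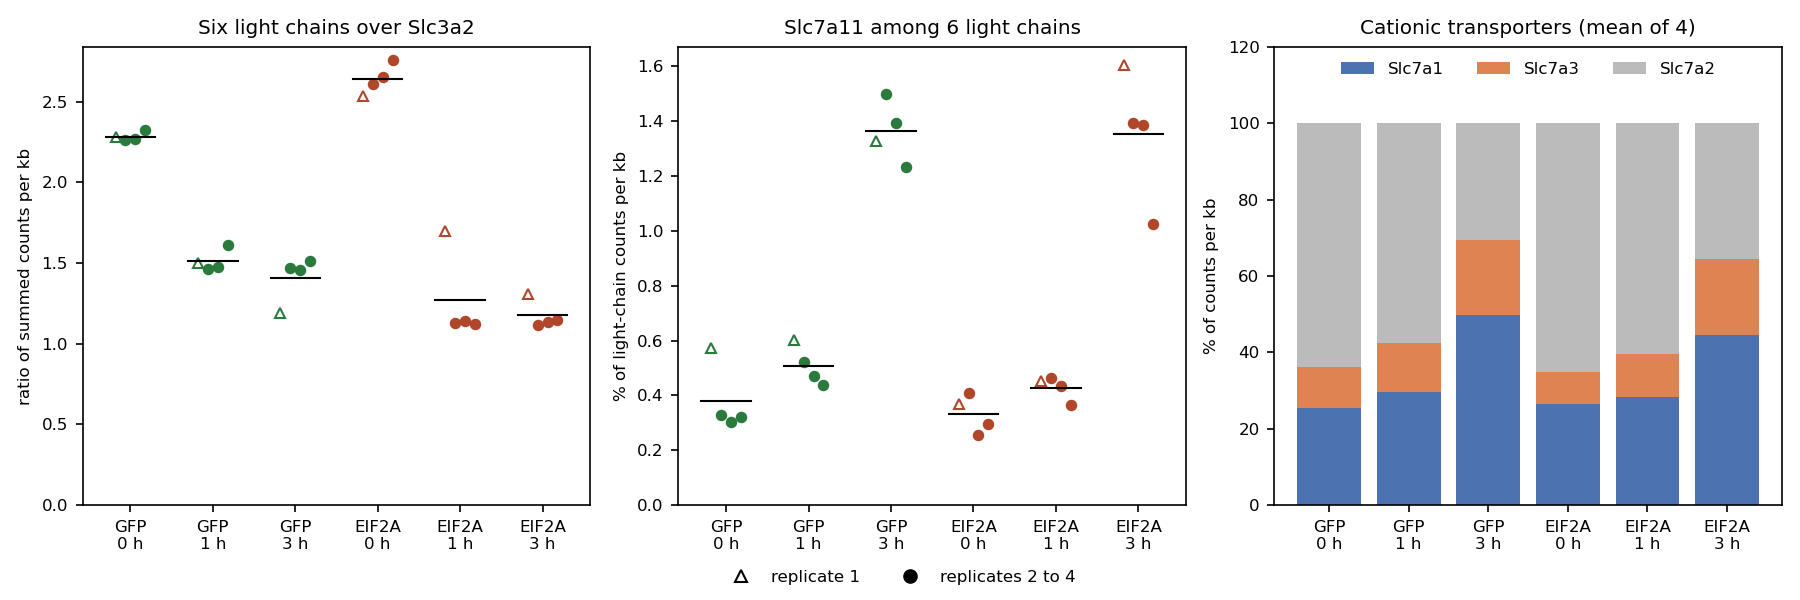
Left, ratio of the 6 summed light chains to the heavy chain Slc3a2; middle, share of Slc7a11 among the light chains in percent; right, mean shares of Slc7a1, Slc7a3 and Slc7a2 in their sum as stacked bars, all from counts per kb by group (triangles: replicate 1; circles: replicates 2 to 4; lines: means). The ratio lies between 2.26 and 2.76 in the 0 h libraries and between 1.12 and 1.51 in the 3 h libraries, and the shares of Slc7a11, Slc7a1 and Slc7a3 lie higher at 3 h.

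Both exchangers of small neutral amino acids, Slc1a4 and Slc1a5, rose at 3 h. Slc1a4, on chromosome 11 at 20302180 to 20332713 (minus strand), was at 44.1, 36.8, 35.7 and 40.3 CPM in GFP cells at 0 h, at 43.1, 53.9, 54.5 and 50.7 CPM at 1 h and at 92.6, 139, 141 and 133 CPM at 3 h. The EIF2A libraries gave 38.2, 46.3, 45.1 and 47.6 CPM at 0 h, 43.0, 45.8, 44.8 and 44.3 CPM at 1 h and 120, 112, 109 and 113 CPM at 3 h. All 3 h libraries lay above all libraries at 0 and 1 h. Slc1a4 rose at 3 h by 1.69 ± 0.11 on the log2 scale in GFP (edgeR adjusted p = 1.67e-09) and by 1.36 ± 0.11 in EIF2A cells (edgeR adjusted p = 1.95e-08). At 1 h it was 0.37 ± 0.11 in GFP cells (edgeR adjusted p = 0.046). That call ended without any of replicates 2 to 4 at either time (edgeR adjusted p from 0.0885 to 0.148) and without the filter on low counts. Without all libraries of replicate 2, 3 or 4 it ended as well (edgeR adjusted p = 0.485, 0.544 and 0.242). The log2 fold change of Slc1a4 at 1 h in EIF2A cells was 0.01 ± 0.11.

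Slc1a5, the glutamine exchanger on chromosome 7 at 16781340 to 16798274 (plus strand), was at 22.0, 22.5, 23.0 and 21.1 CPM in GFP cells at 0 h and at 24, 29.2, 30.2 and 29.0 CPM at 3 h. Values in EIF2A cells were 26.0, 20.2, 19.8 and 18.1 CPM at 0 h and 27.5, 27.5, 30.0 and 31.9 CPM at 3 h. Libraries at 3 h lay above those at 0 h, by little in replicate 1. Its log2 fold change was 0.34 ± 0.12 in GFP (edgeR adjusted p = 0.0261) and 0.47 ± 0.12 in EIF2A cells (edgeR adjusted p = 0.00301). Without replicate 4 at 0 h, or replicate 2, 3 or 4 at 3 h, the GFP value no longer passed (adjusted p from 0.0602 to 0.0801), nor did it without all libraries of replicate 2, 3 or 4 (0.14 to 0.171), and without all libraries of replicate 4 the EIF2A value did not (adjusted p = 0.0831).

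Slc6a9, the glycine transporter, lies on chromosome 4 at 117834506 to 117875198 (plus strand). It was at 12.2, 9.63, 9 and 9.29 CPM in GFP cells at 0 h and at 19.8, 35.5, 36.1 and 35.4 CPM at 3 h. Values in EIF2A cells were 12, 11.3, 14.3 and 9.90 CPM at 0 h and 26.3, 33.3, 34.9 and 45.0 CPM at 3 h. The groups did not overlap, and replicate 1 was the lowest library at 3 h in both constructs. Slc6a9 had a log2 fold change of 1.66 ± 0.18 in GFP (edgeR adjusted p = 7.9e-07) and of 1.55 ± 0.19 in EIF2A cells (edgeR adjusted p = 1.48e-06). Of its 5141 exonic bases, 1986 overlap exons of Gm17114, Ccdc24 or B4galt2 on the opposite strand, and whether reads were counted by strand is not stated, so its counts are uncertain. Ccdc24 and B4galt2, at means of 1.43 and 4.70 CPM, had log2 fold changes of -0.57 and -0.37 at 3 h in GFP cells and did not pass.

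Slc38a2, the sodium-coupled transporter on chromosome 15 at 96687392 to 96699730 (minus strand), did not pass at any time in the fit without the block. It was at 291, 236, 232 and 241 CPM in GFP cells at 0 h and at 305, 323, 304 and 294 CPM at 3 h, where each 3 h library lay above each 0 h library. In EIF2A cells it was at 216, 134, 119 and 121 CPM at 0 h and at 324, 166, 163 and 138 CPM at 3 h, with overlap. Replicate 1 was the highest library of each EIF2A group. The log2 fold change at 3 h was 0.29 ± 0.24 in GFP (edgeR adjusted p = 0.392) and 0.42 ± 0.24 in EIF2A cells (edgeR adjusted p = 0.191). With the replicate block it passed in both constructs, at 0.30 (adjusted p = 2.7e-05) and 0.39 (adjusted p = 9.47e-07). The block likewise gave calls from 1 to 3 h, at 0.25 (adjusted p = 0.000481) in GFP and 0.24 (adjusted p = 0.000676) in EIF2A cells. At 1 h in EIF2A cells it gave 0.14 (adjusted p = 0.043), so that 3 members passed there in place of 1. Of the 13761 genes tested, the block called 6232 at 1 h in EIF2A cells. It called 9234 in GFP and 9105 in EIF2A cells at 3 h against 0 h, and 6834 and 7247 from 1 to 3 h. Without EIF2A replicate 1 at 0 h only, the value at 3 h was 0.67 on the log2 scale and passed (edgeR adjusted p = 0.0366). That fit keeps replicate 1 at 3 h, so the offset of replicate 1 from the other libraries enters the value. Replicate by replicate, the change in EIF2A cells was 0.59, 0.30, 0.45 and 0.19. Without replicate 1 at all times it was 0.32.

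Without replicate 1, all 10 genes passed at 3 h in both constructs, 9 higher and 1 lower. So did a larger share of the 13731 genes then tested: 32.2% rose and 30.8% fell in GFP cells, and 31.2% and 31.4% in EIF2A cells. The log2 fold change of Slc7a11 was then 3.11 ± 0.11 in GFP and 2.73 ± 0.14 in EIF2A cells, and that of Slc6a9 was 1.94 ± 0.11 and 1.67 ± 0.12. Slc38a2 rose by 0.38 ± 0.07 in GFP and by 0.32 ± 0.07 in EIF2A cells, and Slc7a6 fell, with log2 fold changes of -0.17 ± 0.07 and -0.19 ± 0.08. At 1 h, 4 members rose in GFP cells without replicate 1, where 21.2% of all genes rose and 18.2% fell: Slc3a2, Slc1a4, Slc7a5 and Slc7a11, the last at 0.71 ± 0.13 (edgeR adjusted p = 0.000299). In EIF2A cells at 1 h, 1 member rose (Slc3a2) and 2 fell, against 20.2% and 21.8% of all genes; those that fell were Slc7a1 and Slc7a6, the latter at -0.23 ± 0.08 (edgeR adjusted p = 0.0231). From 1 to 3 h, 9 rose in each construct, with Slc38a2 added at 0.28 ± 0.07 in GFP and 0.22 ± 0.07 in EIF2A cells. Over all genes, 21.0% then rose and 21.3% fell in GFP cells, and 25.5% and 23.6% in EIF2A cells. In replicate 1 alone, libraries labelled GFP changed by 1.85 on the log2 scale for Slc7a11 and 0.69 for Slc6a9, and those labelled EIF2A by 2.74 and 1.13. Direction was the same in replicate 1 as in the others for each of the 8 genes that rose.

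The other transporters and the stress genes gave a background for these values. The lists were drawn up for this comparison, and they and the 10 genes were chosen with earlier results of these data known. The contrast between the lists is therefore a description and no independent test. Of 33 other plasma membrane amino acid transporters, 18 were tested: none rose and 6 fell at 3 h in GFP cells, and 1 rose and 5 fell in EIF2A cells, with median log2 fold changes of -0.35 and -0.31. The sodium-dependent transporter Slc38a4 fell by 0.82 in GFP and by 0.81 in EIF2A cells, and the taurine transporter Slc6a6 by 0.80 and 0.85. Slc3a1, which rose in EIF2A cells, had a log2 fold change of 0.87 and a mean of 2.19 CPM. Of 8 lysosomal transporters tested, 2 rose and 2 fell in each construct, among them Slc15a4 (0.90 in GFP) and Slc36a1 (-0.70). Of 10 mitochondrial carriers tested, 2 rose and 4 fell in GFP and 1 rose and 5 fell in EIF2A cells; Slc25a29, a carrier of basic amino acids, had log2 fold changes of 1.02 and 0.87.

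Of 20 genes of the ATF4 axis, 18 rose and none fell at 3 h in each construct, with median log2 fold changes of 1.25 in GFP and 1.21 in EIF2A cells. The largest were the transcription factor Atf3 (3.32 in GFP, 3.52 in EIF2A), Chac1, which degrades glutathione (2.97 and 2.73), and the pseudokinase Trib3 (2.90 and 2.78). At 1 h, 9 had risen in GFP and 7 in EIF2A cells. Of 9 known targets of the oxidative stress factor NRF2, 1 rose and 5 fell at 3 h in GFP cells and 1 rose and 6 fell in EIF2A cells. The gene that rose was Slc7a11 itself, which is on that list as well. Nqo1, a quinone reductase, fell by 0.69 in GFP and by 0.72 in EIF2A cells, and the glutathione reductase gene Gsr fell by 0.60 and 0.58.

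**Figure D4:**
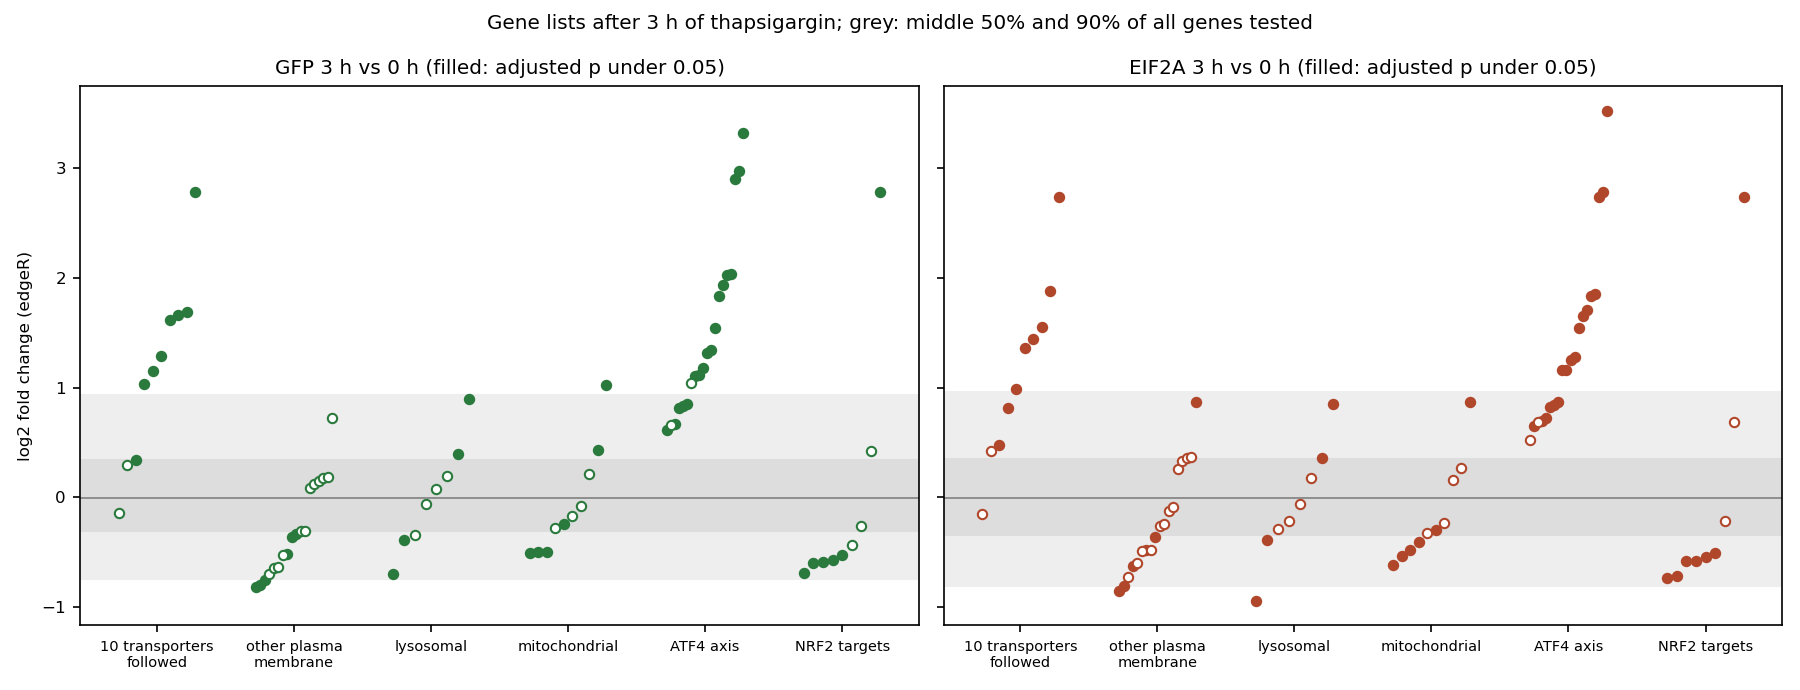
Log2 fold change at 3 h against 0 h of the 10 transporter genes and of the genes of the other lists, each gene a point (filled: adjusted p under 0.05), in GFP and EIF2A cells; grey bands hold the middle 50% and 90% of all genes tested. The transporter genes and the ATF4 axis genes have medians above 1, the other plasma membrane transporters and the NRF2 targets medians below 0. The lists were chosen with earlier results of these data known.

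Markers of other cell types and of beta cells were followed in the same libraries. Of 9 beta cell markers, 5 fell in GFP and 4 in EIF2A cells at 3 h; their sum ran from 72643 to 105634 CPM at 0 h and from 37145 to 62179 CPM at 3 h in GFP cells. In EIF2A cells it ran from 83671 to 109052 CPM at 0 h and from 52659 to 61445 CPM at 3 h. The 5 macrophage and leukocyte markers summed to 1.34 to 5.48 CPM at 0 h and 0.490 to 14.5 CPM at 3 h in GFP cells, with 1 of the 5 at 0 at 0 h, and 2 of them, Csf1r and C1qb, rose there. In EIF2A cells the same sum was 0.717 to 6.63 CPM at 0 h and 1.13 to 6.05 CPM at 3 h, and none of the 3 tested rose. These macrophage and leukocyte ranges and calls include replicate 1, and the sum was not split by replicate. They do not show whether replicate 1 moved with the others or whether the constructs differed. The 6 alpha, delta and PP cell markers summed to 274 to 739 CPM at 0 h and 176 to 431 CPM at 3 h in GFP cells, and to 227 to 911 and 139 to 686 CPM in EIF2A cells, with up to 2 of the 6 at 0 in a group. The 4 duct markers summed to 311 to 1060 CPM at 0 h and 328 to 950 CPM at 3 h in GFP cells, and to 375 to 892 and 405 to 840 CPM in EIF2A cells, with none at 0. Of the tested members of these sets, 0 of 4 and 0 of 2 passed at 3 h in either construct in edgeR with all libraries. Replicate 1 adds to the spread within groups in that fit, so it does not show that these markers were stable. The alpha, delta and PP sum was still lower at 3 h within each set of replicates. In replicates 2 to 4 it was 695 to 739 CPM at 0 h and 421 to 431 CPM at 3 h in GFP cells. In EIF2A cells it was 227 to 242 and 139 to 142 CPM. Replicate 1 had 274 and 176 CPM under the GFP label and 911 and 686 CPM under the EIF2A label. The duct sum moved both ways. The part of any of these sets in the change of the transporter genes was not tested. In bulk RNA, fewer cells of a type and less RNA per cell cannot be told apart.

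Genes whose log2 CPM varied most like each member over the 24 libraries were sought among genes averaging 5 CPM or more. Pearson's r is given as a description, since all points share the time course and the construct. Gpt2, an alanine aminotransferase, was the nearest to Slc7a11 (r = 0.984), Slc7a1 (r = 0.980) and Slc7a5 (r = 0.965). The mitochondrial folate enzyme Mthfd2 was nearest to Slc1a4 (r = 0.983), the mitochondrial serine hydroxymethyltransferase Shmt2 to Slc6a9 (r = 0.977) and Cth, which makes cysteine from cystathionine, to Slc7a3 (r = 0.959). Ppp1r15a, which encodes the phosphatase subunit GADD34, was nearest to Slc3a2 (r = 0.979). Among the members, Slc7a11 and Slc7a1 were most alike (r = 0.971), and Slc6a9 and Slc7a6 least (r = -0.250). Slc38a2 was nearest to Rab5a (r = 0.967), Slc1a5 to Ubr2 (r = 0.899) and Slc7a6 to Necap1 (r = 0.940).

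Whether EIF2A altered the level of the transporters was asked at each time. With all libraries, 0 of 10 passed at 0, 1 or 3 h in edgeR. Eif2a itself did not pass there either (edgeR adjusted p = 0.983, 0.942 and 0.960). Its log2 ratio of EIF2A to GFP at 0 h was -1.75 in replicate 1 and 0.84, 0.87 and 0.77 in replicates 2 to 4. Since replicate 1 goes against the labels, this fit cannot show that the transporters were alike between constructs. At 0 h, 0.00727% of all genes were higher and 0.0145% lower in EIF2A cells, at 1 h 0.690% were higher and 0.334% lower, and at 3 h 0% were higher and 0% lower. At an unadjusted p under 0.05, 2901 genes differed at 3 h in edgeR, and DESeq2 called 172. Slc38a2 had the largest difference of the 10, at -0.76 ± 0.24 at 0 h (edgeR adjusted p = 0.124), -0.64 ± 0.24 at 1 h (edgeR adjusted p = 0.104) and -0.63 ± 0.24 at 3 h (edgeR adjusted p = 0.193).

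Without replicate 1, 8 of 10 differed at 0 h, 9 at 1 h and 8 at 3 h. The share of all 13731 genes that differed was then large as well: 31.9% were higher and 32.9% lower in EIF2A cells at 0 h, 32.7% and 37.3% at 1 h, and 32.5% and 35.1% at 3 h. Slc38a2 was lower by the most, at -0.92 ± 0.07 at 0 h (edgeR adjusted p = 1.05e-09), -0.93 ± 0.07 at 1 h and -0.98 ± 0.07 at 3 h. Slc7a5 was lower in EIF2A cells, at -0.28 ± 0.05, -0.51 ± 0.05 and -0.53 ± 0.05 at 0, 1 and 3 h. Slc1a4 was higher at 0 h, at 0.30 ± 0.06 (edgeR adjusted p = 0.000107), and lower at 3 h, at -0.31 ± 0.05 (edgeR adjusted p = 2.07e-05). Slc6a9 was higher at 0 h, at 0.34 ± 0.13 (edgeR adjusted p = 0.0293). Lower at 0, 1 and 3 h were Slc7a3 (-0.69, -0.63 and -0.41), Slc7a6 (-0.41, -0.48 and -0.44) and Slc3a2 (-0.53, -0.10 and -0.15). Slc7a11 (-0.71 and -0.65) and Slc7a1 (-0.43 and -0.58) were lower at 1 and 3 h. Slc1a5 was lower at 0 and 1 h (-0.19 and -0.24), and Slc1a4 also at 1 h (-0.24). Markers of other cell types and the make-up of the libraries moved with the construct in the same replicates. At 0 h the alpha, delta and PP cell markers summed to 227 to 242 CPM in EIF2A and 695 to 739 CPM in GFP cells, and 3 of the 4 tested were lower (median log2 difference -1.71). The duct markers summed to 375 to 409 CPM in EIF2A and 1048 to 1060 CPM in GFP cells, and both of those tested were lower (median -2.30). Over the 3 times, lines naming no gene held 13.9% to 18.4% of the counts in EIF2A and 11.5% to 13.6% in GFP libraries, and depth was 10.5 to 16.6 and 16.7 to 22.2 M (mega) counts. In replicate 1 at 0 h the order of the markers was the reverse: the alpha, delta and PP sum was 911 CPM in the library labelled EIF2A and 274 CPM in that labelled GFP. Their part in the differences of the transporters was not tested.

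In replicate 1 itself, the difference of the library labelled EIF2A from that labelled GFP had the opposite sign to replicates 2 to 4 for 6 of 10 genes at 0 h, 7 at 1 h and 8 at 3 h. For Slc7a5 it was 0.44, 0.45 and 0.44 on the log2 scale at 0, 1 and 3 h. Leaving out only the EIF2A library of replicate 1 at a time gave 2 calls among the members at 0 h, 6 at 1 h and 3 at 3 h. Over all genes, 11.5% were then higher and 9.40% lower at 0 h, 18.0% and 20.9% at 1 h, and 12.8% and 12.3% at 3 h. Slc38a2 then stood at -1.0 (edgeR adjusted p = 0.0131), -0.95 (adjusted p = 0.00455) and -0.98 (adjusted p = 0.0125). For Slc38a2 the difference within replicate 1 had the same sign at 0 h (-0.43) and 1 h (-0.07) and the opposite sign at 3 h (0.09).

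**Figure D5:**
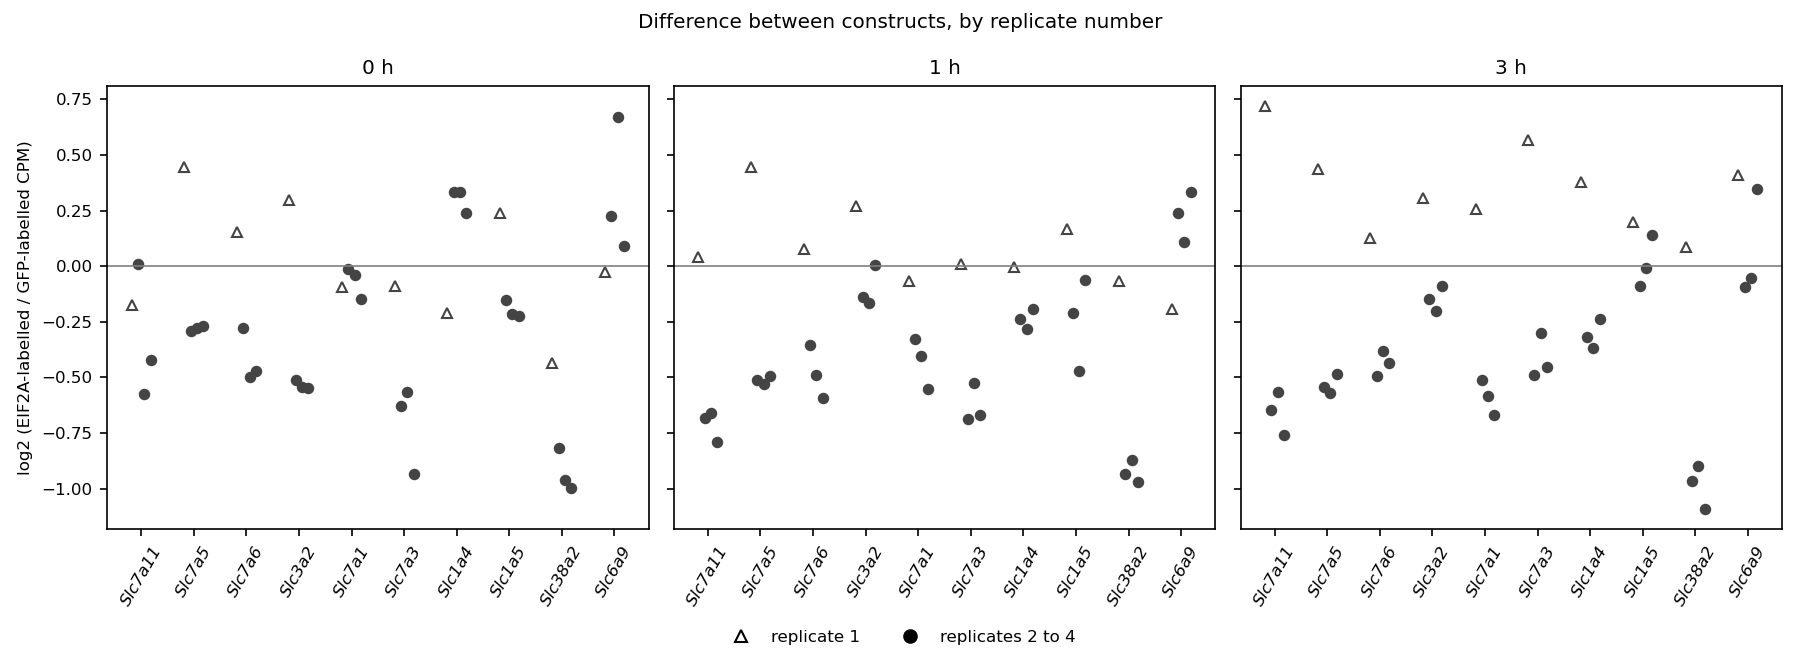
Log2 ratio of EIF2A to GFP for each transporter gene at 0, 1 and 3 h, with replicate 1 drawn apart from replicates 2 to 4. In replicates 2 to 4 Slc38a2 lies lowest, near -0.92 at 0 h and -0.98 at 3 h, while replicate 1 lies on the other side of 0 for 8 of the 10 genes at 3 h.

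The last comparison asked whether the response to thapsigargin differed between the constructs, measured as the EIF2A change less the GFP change. With all libraries, 0 of 10 members and 0% of all genes passed in edgeR at 1 h or 3 h, in either direction. Replicate 1, whose Eif2a level goes against its labels, enters this fit too, so it cannot show that the responses were alike. At an unadjusted p under 0.05 there were 72 genes at 1 h and 146 at 3 h, and DESeq2 called 0 at both. Without replicate 1, 2 of 10 passed at 1 h and 4 of 10 at 3 h, where 0.488% and 0.328% of all genes had a higher or lower response at 1 h and 1.55% and 2.57% at 3 h. At 3 h the response of Slc1a4 was lower in EIF2A cells by -0.61 ± 0.07 (edgeR adjusted p = 6.23e-05), that of Slc7a1 by -0.52 ± 0.09 (edgeR adjusted p = 0.00216) and that of Slc7a5 by -0.25 ± 0.07 (edgeR adjusted p = 0.0401). The response of Slc3a2 was higher, at 0.39 ± 0.06 (edgeR adjusted p = 0.00105). At 1 h Slc1a4 differed by -0.54 ± 0.08 and Slc3a2 by 0.43 ± 0.06, each with an edgeR adjusted p of 0.00208. In replicate 1 the same difference at 3 h was 0.59 for Slc1a4, 0.35 for Slc7a1, -0.0046 for Slc7a5 and 0.0084 for Slc3a2. These calls without replicate 1 rest on 3 libraries per group.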

How the data were processed

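Gene counts of 24 libraries (6 groups of 4) were analysed. The values are raw counts per gene as the authors deposited them, without normalization. Per the submitters' processing notes, bcl2fastq and STAR were used with build mm10, and the labels' protocols name a stranded mRNA kit. How reads were assigned to genes (program, annotation, strand) is not stated in the labels. The 2 lines that name no gene held 11.3% to 18.4% of the counts of a library and were left out. Groups and replicate numbers came from the sample titles.

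The tests used edgeR 4.0.16 (R 4.3.3): filterByExpr (minimum count 10, minimum total 15), TMM scaling, a robust quasi-likelihood fit of the 6 group means (18 residual degrees of freedom) and Benjamini-Hochberg adjustment over 13761 genes. An adjusted p under 0.05 was called. The test gives no standard error, so SE is the absolute log2 fold change divided by the square root of the F statistic. CPM are counts-per-million after TMM scaling; log2 CPM used a prior count of 2. Exonic lengths and gene positions came from GENCODE M21 (GRCm38, the same build as mm10) and promoter sequences from RefSeq. Ratios and shares were tested by two-sided exact permutation. Every member is named at 3 h against 0 h. In the other comparisons, the members called by edgeR with all libraries or without replicate 1 are named. From other lists, the 3 called genes of largest change averaging 5 CPM or more qualified. Slc3a1, Csf1r, C1qb, Slc7a2, Slc7a8, Ccdc24, B4galt2 and Eif2a were named after their values were seen or as checks. The members and lists were chosen with earlier results of these data known.

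The replicate number within a construct was used as a block in an alternative fit, since the deviations of same-numbered libraries from their group means correlated at over 0.1 in every pair of times. For replicate 1 these correlations were 0.878 to 0.933, and -0.80 to -0.56 with the nearest other number. For replicates 2 to 4 they were 0.510 to 0.704, against 0.462 to 0.680 with the nearest other number, which was the higher in 4 of 18 cases, so only replicate 1 stood clearly apart. Between constructs the correlations were -0.66 to -0.16; with replicate 1 in the group means they do not test whether replicates 2 to 4 pair, and a block on the number across constructs is given only as an alternative. Other alternatives were DESeq2 1.42.0, no filter on low counts, library totals in place of TMM, and leaving out each replicate number or library. Depth was 10.5 to 22.2 M (mega) counts, without molecular identifiers, so amplification can add to the counting error.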

Additional observations from a re-analysis of the deposited data

Results flagged for a closer look

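Of 60 groups of 4 libraries (10 genes in 6 groups), 19 held a library whose gap to the nearest of the others, relative to the range of the group, exceeded Dixon's 95% critical value. Chance flags about 1 in 20 groups. In all 19 the library was replicate 1, whose Eif2a level goes against its labels. Values in this paragraph are CPM of that library. It lay above the other 3 for Slc7a11 in GFP at 0 h (8.51), for Slc7a1 in GFP at 0 h (118) and 1 h (109), and for Slc7a3 at 1 h in GFP (20.4) and EIF2A (20.6). It also lay above them for Slc3a2 in EIF2A at 0 h (204), for Slc7a5 in EIF2A at 0 h (478) and 1 h (465), for Slc6a9 in GFP at 1 h (12.9), and for Slc38a2 in GFP at 0 h (291) and in EIF2A at 0 h (216), 1 h (261) and 3 h (324). It lay below the other 3 for Slc7a5 in GFP at 1 h (341) and 3 h (567), for Slc1a4 in GFP at 3 h (92.6), for Slc6a9 in GFP at 3 h (19.8) and for Slc7a6 in GFP at 0 h (35.6) and 1 h (34.2).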

How the results depend on the processing

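Members called by edgeR at 3 h against 0 h stayed at 8 of 10 in each construct with DESeq2, without the filter on low counts and with library totals. Leaving out a library or replicate number gave 6 to 10 members at 3 h against 0 h, 0 to 4 at 1 h against 0 h and 5 to 9 at 3 h against 1 h in GFP cells, and 7 to 10, 1 to 3 and 5 to 9 in EIF2A cells. EIF2A against GFP gave 0 to 8, 0 to 9 and 0 to 8 members at 0, 1 and 3 h and the difference in response 0 to 2 at 1 h and 0 to 4 at 3 h. Without the filter on low counts, 1 member passed at 1 h in GFP cells. With the replicate block, 3 passed at 1 h in EIF2A cells, and 10 at 3 h in each construct; beyond the blocked values given with the genes, it changed no call with time. Between constructs a block on the number gave 1, 1 and 2 calls at 0, 1 and 3 h, where 1333, 2890 and 1054 of the 13761 genes were called, and DESeq2 gave 1 at 0 h and 1 at 1 h, where it called 468 and 1624 genes. Ratios and shares kept their direction without each replicate number, at differences of -0.90 to -0.81 for the light to heavy chain ratio in GFP and -1.54 to -1.41 in EIF2A cells, 0.919 to 1.06 and 0.949 to 1.12 percentage points for Slc7a11, and 7.66 to 10.1 and 10.8 to 12.7 percentage points for Slc7a3; 3 libraries against 3 cannot go below p = 0.1 in the exact permutation test. Directions turned only for values that had not passed. Those were Slc7a6 from 1 to 3 h in GFP (-0.016 by DESeq2, -0.0050 without the filter), Slc7a6 at 3 h in EIF2A (0.0027 with library totals), Slc7a6 in the difference in response at 3 h (0.026 with library totals) and Slc3a2 between constructs at 1 h (0.00037 by DESeq2). Library totals gave all genes a median log2 fold change of 0.12 in GFP and 0.15 in EIF2A cells at 3 h against 0 h. Over all genes the block raised the calls at 3 h from 4543 to 9234 in GFP and from 4985 to 9105 in EIF2A cells, and at 1 h from 1125 to 6132 and from 1444 to 6232. Leaving out libraries turned the direction of further values that had not passed, with these ranges of log2 values. At 1 h in GFP cells, Slc7a3 -0.089 to 0.24 and Slc6a9 -0.039 to 0.18. From 1 to 3 h in GFP cells, Slc7a6 -0.072 to 0.070. At 1 h in EIF2A cells, Slc7a5 -0.24 to 0.14, Slc7a3 -0.25 to 0.57, Slc1a4 -0.059 to 0.044, Slc38a2 -0.15 to 0.41 and Slc6a9 -0.18 to 0.084. From 1 to 3 h in EIF2A cells, Slc38a2 -0.090 to 0.57 and Slc7a6 -0.027 to 0.11. Between constructs at 0 h, Slc7a1 -0.18 to 0.043. Between constructs at 1 h, Slc3a2 -0.10 to 0.038. Between constructs at 3 h, Slc3a2 -0.15 to 0.025, Slc1a5 -0.010 to 0.10 and Slc6a9 -0.033 to 0.25. In the difference in response at 1 h, Slc7a11 -0.47 to 0.018, Slc7a5 -0.37 to 0.0064, Slc7a3 -0.37 to 0.45, Slc1a5 -0.17 to 0.067, Slc38a2 -0.19 to 0.36, Slc6a9 -0.25 to 0.020 and Slc7a6 -0.13 to 0.035. In the difference in response at 3 h, Slc7a11 -0.38 to 0.21, Slc38a2 -0.22 to 0.37, Slc6a9 -0.28 to 0.11 and Slc7a6 -0.087 to 0.080.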
